A study of Bos taurus with 23 samples.

Results

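Peripheral white blood cells (PWBC) of Angus-Simmental crossbred heifers were sequenced as 1 library per heifer, with 11 heifers from experimental station A and 12 from station B. In 5 of the 11 station A libraries the 10 largest genes took over 5% of the counts of retained genes, and these 5 libraries are called top-heavy here. The other 6 libraries of station A are the class they were compared with, whatever the pregnancy outcome. The top-heavy libraries were SL220771 and SL220772 from heifers that became pregnant to artificial insemination (AI-pregnant), and SL220767, SL220773 and SL220774 from heifers that became pregnant later by natural breeding (NB-pregnant). The other class held SL220764, SL220765, SL220766 and SL220775 from AI-pregnant heifers, and SL220768 and SL220769 from NB-pregnant heifers. All 11 heifers had gone through the same estrous synchronization, received semen by AI and were bled right after it. The cells were the buffy coat after lysis of red cells, a mixture of leukocyte types that was not sorted. The classes were made from the counts themselves, so values between them are given as a description, with no test across genes. Each library is a different heifer, and no heifer was sampled again.

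The mitochondrial genome codes for subunits of the respiratory chain complexes I, III and IV and of the ATP synthase (complex V), and for the 2 ribosomal RNAs with which mitochondria translate them. Most of its messenger RNAs carry poly(A) tails and can therefore be caught by an mRNA library together with nuclear transcripts. White blood cell types differ in how many mitochondria they hold. Every count is a share of a fixed sequencing effort, so a group of genes that takes more of a library leaves less for the remaining genes. Normalization factors by the trimmed mean of M values (TMM), which centre the bulk of genes between libraries, were applied for that reason, and levels are given as TMM-scaled counts-per-million (CPM).

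The gene table held Ensembl identifiers without symbols, and 24 of them were paired with a symbol in the study. The mitochondrial genes were therefore found by length alone. For each of the 15 mitochondrial genes of 200 bases or more in RefSeq (13 coding and 2 ribosomal), the most abundant retained gene was taken whose length, as implied by the FPKM values, was 1 base shorter than the RefSeq length. A gene was found for all 15, of 66 retained genes with these lengths, and they are called mitochondrial-length genes below, each by the gene it matches. The choice of the most abundant gene of a length used the level of the gene, and the names were not checked by sequence.

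The 15 mitochondrial-length genes took several times more of the counts in the top-heavy libraries. They held 12.1% of the counts in SL220767, 9.16% in SL220771, 7.64% in SL220772, 11.05% in SL220773 and 13.7% in SL220774. In the other 6 libraries they held 1.297% to 2.64%, with a median of 1.90%, so the classes lay far apart. The 12 libraries of station B, which the rule did not use, held 1.48% to 4.55% with a median of 3.40%, below every top-heavy library. Of the 10 largest genes of each library, 8 to 10 were mitochondrial-length genes in the top-heavy class and 1 to 2 in the other class. In station B they were 1 to 9 with a median of 3.5, and SL253814, with 9, was within the top-heavy range by this count.

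The share that defined the classes is given beside it. The 10 largest genes took 11.2%, 8.52%, 7.12%, 10.2% and 12.6% of the counts in SL220767, SL220771, SL220772, SL220773 and SL220774. In the other 6 libraries they took 2.89% to 4.08%. The libraries nearest to the limit of 5% were SL220772 with 7.12% on the upper side and SL220768 with 4.08% on the lower side. With the 15 mitochondrial-length genes left out, the 10 largest genes took 4.09% to 4.48% in the top-heavy and 2.78% to 3.81% in the other libraries. No library then passed 5%, and the classes were still separate, by 0.28 percentage points.

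**Figure D1:**
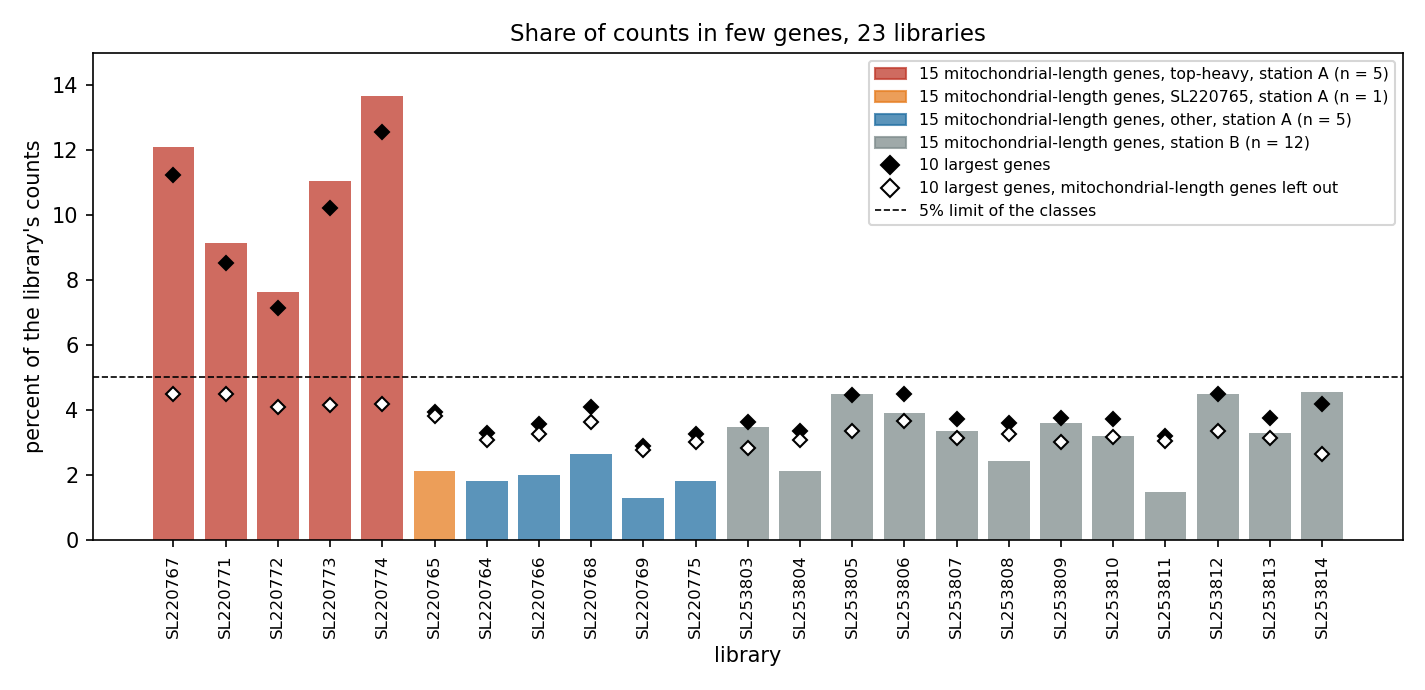
Share of counts (percent, y axis) in each of the 23 libraries (x axis). Bars give the 15 mitochondrial-length genes, filled diamonds the 10 largest genes and open diamonds the 10 largest genes once the mitochondrial-length genes are left out. The 5 top-heavy libraries stand above the dashed 5% limit with filled diamonds from 7.12% to 12.6%, and every open diamond lies under it.

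The top-heavy libraries also had the fewest counts of station A. Their total counts were 4826003 to 6105250, against 6832237 to 20053283 in the other class, with no overlap. This did not hold for read pairs. By the numbers in the paper, SL220768 of the other class had the fewest pairs of station A, both sequenced and aligned. The percentage of pairs aligned did follow the classes, apart from SL220765. It was lower in every top-heavy library than in each other library of station A except SL220765, which lay within the top-heavy range. The authors removed duplicate read pairs before counting, and whether duplicates or depth had a part in the classes was not tested. In station B, the 3 libraries with the fewest counts held 3.61% to 4.48% in mitochondrial-length genes. The station B library SL253806, at 5577129 counts within the range of the top-heavy class, held 3.89%, and the lowest top-heavy value was 7.64%. In the other class the share was highest, 2.64%, in SL220768 with the fewest counts. It was lowest there, 1.297%, in SL220769 with the most counts. The station B library with the most counts, SL253811 with 20434401, held the least of its station, 1.48%. How far the share goes with depth was not tested. Numbers of expressed genes also differed between the classes. Thinned to 4500000 counts, the top-heavy libraries were expected to show 14121 to 14533 genes and the other class 14598 to 14995 genes. The smallest set of genes that made up 50% of the counts held 479 to 610 genes in the top-heavy and 804 to 1157 in the other libraries. Without the mitochondrial-length genes these numbers were 664 to 745 and 836 to 1177, still without overlap.

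Each of the 15 mitochondrial-length genes was higher in every top-heavy library than in any other library of station A. Their log2 fold changes, top-heavy over other, ran from 2.71 to 3.29 with a median of 2.92, where 1 on this scale is a ratio of 2. Among all 12128 retained genes the median was -0.08. The genes of COX1, COX2, COX3, CYTB, ND1, ND2, ND4, ND5, ATP6 and 16S rRNA length were among the 10 largest of some library and so entered the rule directly. A further 5, of 12S rRNA, ATP8, ND3, ND4L and ND6 length, were not among them. Their log2 fold changes were 2.71 to 3.16, against 2.76 to 3.29 for the 10 that entered. The 5 are matched to the same mitochondrial genome as the 10, so they are not independent of the rule and are no check on it.

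Cytochrome c oxidase (complex IV), the last complex of the electron transport chain, held the most abundant of these genes. The COX1-length gene, for the catalytic subunit, had 38442, 28174, 21081, 31860 and 38512 CPM in SL220767, SL220771, SL220772, SL220773 and SL220774. In the other class it had 2963 to 6937 CPM with a median of 4413. Even the lowest top-heavy library, SL220772, stood well above the highest of the other class, SL220768. Its log2 fold change was 2.76, and those of the COX2- and COX3-length genes were both 2.88. Per length the COX1-length gene also led, with a mean of 17050 of the authors' FPKM in the top-heavy and 3494 FPKM in the other libraries.

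Complex I, the entry point for electrons from NADH, had 7 genes, with log2 fold changes of 2.71 to 3.29 and a median of 3.16. The ND5-length gene had the largest log2 fold change of the 15 with all 11 libraries, though not within either outcome or without SL220765. It had 10304, 6900, 5623, 9743 and 11689 CPM in SL220767, SL220771, SL220772, SL220773 and SL220774, against 672 to 1328 CPM with a median of 906 in the other class. Here too no library of one class reached the other, and SL220772 was again the lowest of its class. The ND3-length gene had the smallest with all 11 libraries, 2.71, while the COX1-length gene had a smaller one among NB-pregnant heifers and without SL220765. The ND4L-length gene, 532 to 1015 CPM in the top-heavy and 64.0 to 124 CPM in the other libraries, is a low one of the group. In the mitochondrial genome the ND4L gene overlaps ND4 and ATP8 overlaps ATP6, so pairs in the overlaps can be lost from or assigned to either gene.

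The CYTB-length gene, for the mitochondrially coded subunit of complex III, had a log2 fold change of 3.05, with 7150 to 15059 CPM in the top-heavy and 947 to 1883 CPM in the other libraries. Both genes of ATP synthase length changed alike, by 2.83 (ATP8) and 2.84 (ATP6). The ATP8-length gene had 136 to 235 CPM in the top-heavy and 19.4 to 35.6 CPM in the other libraries, so the separation extended to a gene with a small share of the counts.

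The ribosomal RNA-length genes were as much higher in the top-heavy class as the coding genes, and 1 library of the other class stood apart in them. The 16S rRNA-length gene had 7915, 6845, 6444, 7413 and 13412 CPM in SL220767, SL220771, SL220772, SL220773 and SL220774, and 579 to 2411 CPM with a median of 965 in the other class. Its highest value among the other libraries came from SL220765, and the next was 1290 CPM. The 12S rRNA-length gene showed the same order, with 2627 to 6041 CPM in the top-heavy libraries, 1040 CPM in SL220765 and at most 503 CPM in the remaining 5. The ratio of the 16S to the 12S rRNA-length gene was 2.07 to 2.57 over the 11 libraries, and the classes overlapped in it.

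**Figure D2:**
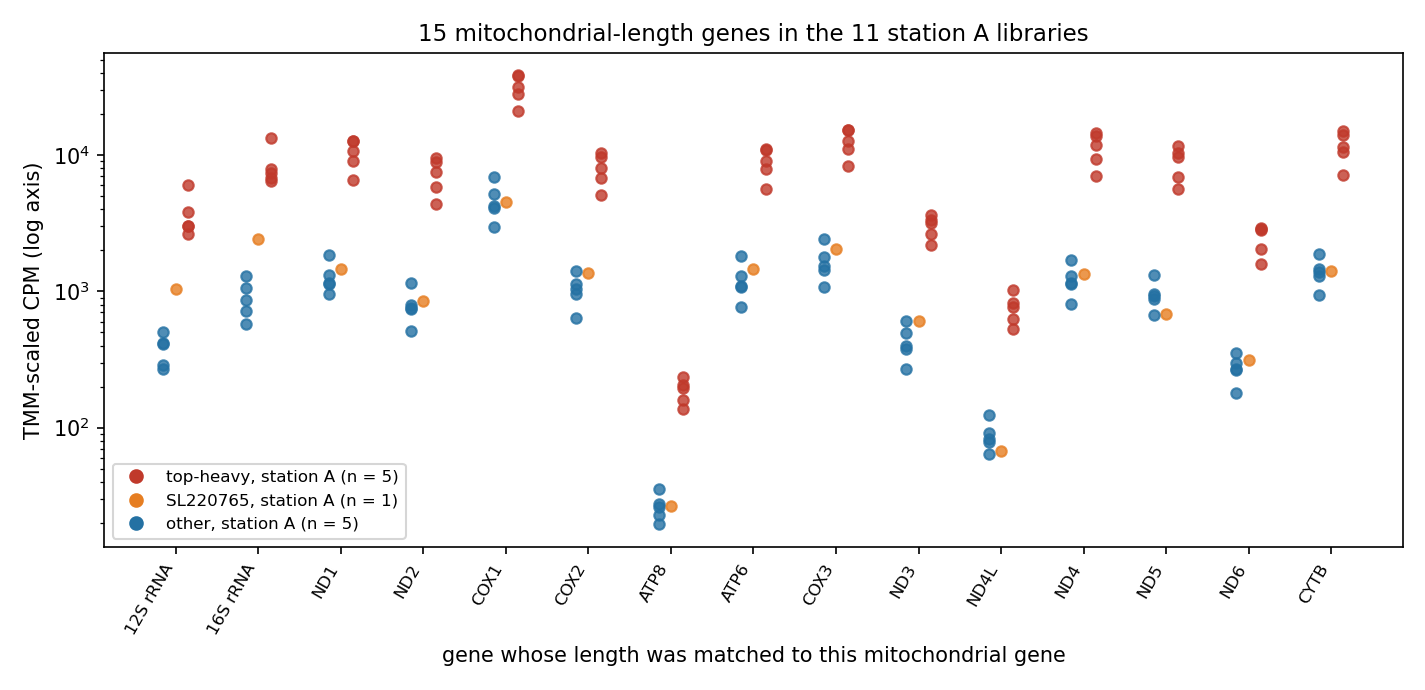
TMM-scaled CPM (log axis) of the 15 mitochondrial-length genes in the 11 station A libraries, 1 point per library, with SL220765 in a colour of its own. All top-heavy points lie above all other points for each gene, and SL220765 stands above the remaining 5 mainly for the 12S and 16S rRNA-length genes, at 1040 and 2411 CPM.

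The other 51 retained genes of the same lengths had a median log2 fold change of 0.56, with 12 (23.5%) higher and 7 (13.7%) lower by the rule used for all genes below, which counted 13.6% and 16% of all retained genes. The difference was also computed within each pregnancy outcome. Among AI-pregnant heifers alone, 2 top-heavy against 4 other, the median log2 fold change of the 15 genes was 2.53, in a range of 2.36 to 2.86. Among NB-pregnant heifers alone, 3 against 2, it was 3.28, in a range of 2.94 to 3.51. All 15 genes had the larger value in NB-pregnant heifers, and this difference was not tested. The class itself held 2 AI-pregnant and 3 NB-pregnant heifers, and the other class 4 and 2, with no association detected by Fisher's exact test (two-sided, p = 0.567). The odds ratio of 0.370 had a 95% interval of 0.0157 to 6.46 and so spans both directions.

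Over all retained genes, 1654 were higher and 1935 lower in the top-heavy libraries. A gene was counted when its 5 top-heavy values and its 6 other values did not overlap in TMM-scaled CPM and its log2 fold change was at least 1 in size. These are 13.6% and 16% of the 12128 retained genes, 29.6% in all, and because the classes were drawn from the same counts the shares describe the classes and test nothing. Without the limit on the fold change, 22.4% of genes did not overlap in the upward and 22.4% in the downward direction. A log2 fold change of at least 2 was reached by 334 of the higher genes and by 258 of the lower genes, and one of at least 3 by 45 and 9. The mitochondrial-length genes were 15 of the 1654. The direction of the balance depended on the scaling, since without normalization factors 744 genes were higher and 3431 lower, and with DESeq2 size factors 1803 and 1744.

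A total of 24 genes were among the 10 largest of at least 1 station A library, of which 10 were mitochondrial-length genes. Of the other 14, 1 was higher and 0 were lower by the rule, 10 had log2 fold changes under 1 in size, and their range was -1.62 to 1.15. With SL220765 set apart 1 was higher and 3 were lower, so the 0 rests on that library. The background was 13.6% higher and 16% lower over all retained genes, and 17.7% and 23.2% with SL220765 set apart.

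Among genes without overlap between the classes and with a mean of at least 20 CPM, those of largest fold that are not of mitochondrial length carried no symbol. ENSBTAG00000047504, 163 bases long, had 62.3, 109, 46.0, 118 and 51.7 CPM in SL220767, SL220771, SL220772, SL220773 and SL220774, and 2.30 to 7.87 CPM with a median of 4.23 in the other class, a log2 fold change of 4.05. ENSBTAG00000038577, 1095 bases, had 104, 79.7, 78.1, 127 and 111 CPM, and 4.67 to 10.9 CPM with a median of 6.17, a log2 fold change of 3.88. In both genes the highest value of the other class was that of SL220765, far under every top-heavy value.

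On the lower side, ENSBTAG00000039524, 848 bases long, had 1.41, 5.64, 4.89, 1.58 and 2.72 CPM in the same 5 libraries and 12.8 to 71.0 CPM with a median of 42.4 in the other class, a log2 fold change of -3.71. ENSBTAG00000010830, 13663 bases, had 11.01, 8.46, 19.2, 9.94 and 11.9 CPM, and 57.0 to 117 CPM with a median of 84.9, a log2 fold change of -2.88. In both the lowest value of the other class was again that of SL220765. Of the 15 genes with the largest fold on the higher side, 9 were shorter than 1000 bases and 3 were mitochondrial-length genes, and of the 15 on the lower side 2 were shorter than 1000 bases.

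Gene length differed between the higher and the lower genes. The median length was 1321 bases for the higher genes and 2091 bases for the lower genes, beside 1963 bases for all retained genes. Genes under 1000 bases were 36.6% of the higher, 13.3% of the lower and 17.1% of all retained genes. The shares by class of length and abundance below leave out the 15 mitochondrial-length genes. The share of genes that were higher fell from 30.2% under 300 bases and 28.8% from there to 1000 bases to 15.4%, 8.06% and 3.99% in the longer classes. The share that were lower went from 12.7% and 12.5% to 15.8%, 17.1% and 17.8%.

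**Figure D3:**
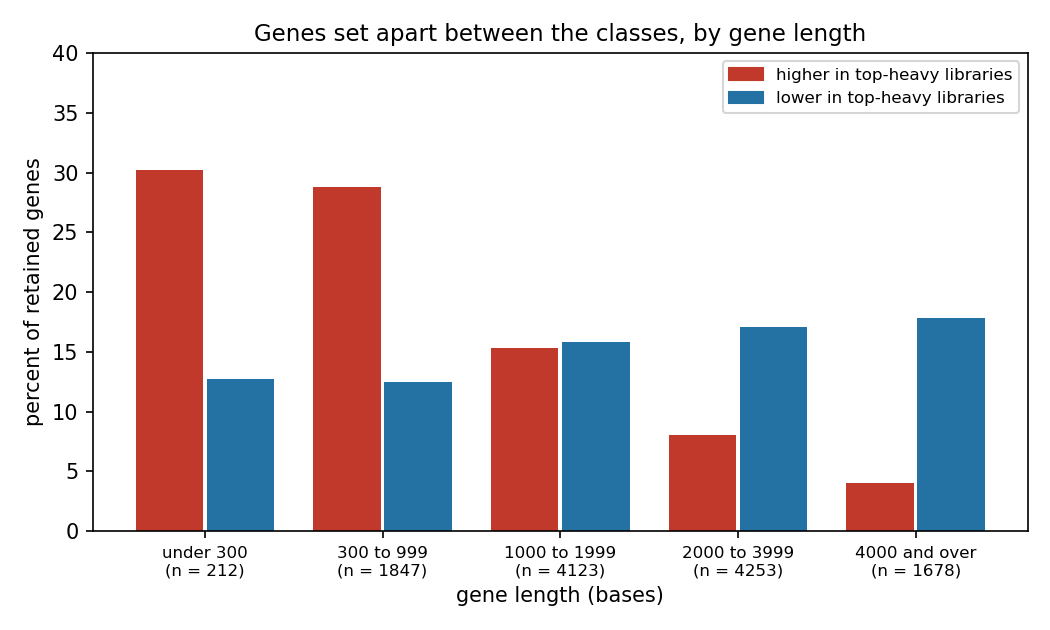
Percent of retained genes (y axis), without the 15 mitochondrial-length genes, that were higher or lower in the top-heavy libraries, in 5 classes of gene length in bases (x axis, with the number of genes in each). The share of higher genes falls from 30.2% in the shortest class to 3.99% in the longest, while that of lower genes goes from 12.7% to 17.8%.

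Abundance went with the direction as well. Of the genes with a mean under 5 CPM, 9.49% were higher and 18.3% lower, and of those at 500 CPM and over, 32.0% were higher and 1.49% lower. The filter of more than 1 CPM in 6 or more libraries is not even between the classes. The 6 other libraries can meet it alone and the 5 top-heavy libraries cannot. At low CPM it can therefore keep lower genes where it drops their opposites, and the balance there is not free of it. The share of higher genes fell with length within each of the 5 classes of abundance. The share of lower genes did not rise steadily with length in all of them, and under 5 CPM it was 18.3%, 20.1% and 16.9% from the shortest to the longest genes. Among genes of 20 to 100 CPM, for example, 35.3% of those under 1000 bases, 17.9% of those from 1000 to under 2000 bases and 6.10% of longer ones were higher. Among genes of 500 CPM and over, the same shares were 55.9%, 24.7% and 13.8%. Across the 12128 genes, Spearman's rho of the log2 fold change was -0.23 with length and 0.25 with mean CPM. Genes are not independent replicates, and all share the same 11 libraries, so these are descriptions.

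SL220765 lay between the classes in most of the higher genes, and with the other class in most mitochondrial-length genes. With this library set apart, 2151 genes were higher (17.7%) and 2813 lower (23.2%) in the 5 top-heavy against the remaining 5 libraries. Of the 2136 higher genes that are not of mitochondrial length, SL220765 fell between the ranges of both classes in 63.9%, within or past the top-heavy range in 13.1% and within or past the other range in 23.0%. Of the 2813 lower genes these shares were 48.8%, 33.0% and 18.2%. On a scale where 0 is the mean log2 CPM of the 5 remaining libraries and 1 that of the top-heavy libraries, its median place was 0.38 over the higher and 0.52 over the lower genes. Over the 15 mitochondrial-length genes it was 0.08, and 12 of the 15 fell within the range of the other class or under it.

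Over both sets together its median place was 0.44. The remaining 10 libraries were used to choose these genes and could not fall between the classes on them, so no place is given for them. The first principal component of log2 CPM over all retained genes, with 71.3% of the variance, put SL220765 at -6.90, the remaining 5 libraries at -70.8 to -60.1 and the top-heavy libraries at 48.6 to 83.1. On the second component, with 6.08% of the variance, SL220765 was at -54.4 and the remaining 10 libraries at -4.67 to 14.5. SL220765 had 11861598 counts, about the middle of its class, and a share of 2.10% in mitochondrial-length genes.

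Libraries within a class varied about equally once SL220765 was included. The median over genes of the standard deviation of log2 CPM was 0.30 in the top-heavy class (n = 5) and 0.29 in the other class (n = 6). Without SL220765 the latter was 0.18 (n = 5), so the likeness of the classes rests on that library. The top-heavy libraries had fewer counts, and whether this had a part in their spread was not tested. Among the top-heavy libraries, SL220772, with the lowest share of mitochondrial-length genes, was the lowest of its class for all 15 such genes.

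The same genes were also measured in the 12 libraries of station B. The genes were chosen for being extreme in the top-heavy libraries, so the values in the station A classes are fixed by that choice, and libraries outside it can fall short of them for that reason alone. A common TMM scaling of both stations was made on the genes retained in station A, not all of which were retained in station B. In it, the mean log2 CPM of the 2136 higher genes minus that of the 2813 lower genes was 2.60 to 3.34 in the top-heavy libraries, 1.20 in SL220765 and -0.41 to -0.14 in the remaining 5. In station B it was -1.34 to 0.08. The mean over the higher genes was 2.61 to 4.73 in station B and 5.82 to 6.06 in the top-heavy libraries, and the mean over the lower genes 3.78 to 4.80 and 2.57 to 3.22. Station B was not uniform in this. SL253804, SL253808 and SL253811 had 4.29, 4.51 and 4.73 over the higher genes, and the highest of the remaining station B libraries, SL253812, had 3.22. Of the 1654 higher genes 79.0% were also retained in station B, of the 1935 lower genes 85.1%, and of all 12128 genes 85.9%.

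**Figure D4:**
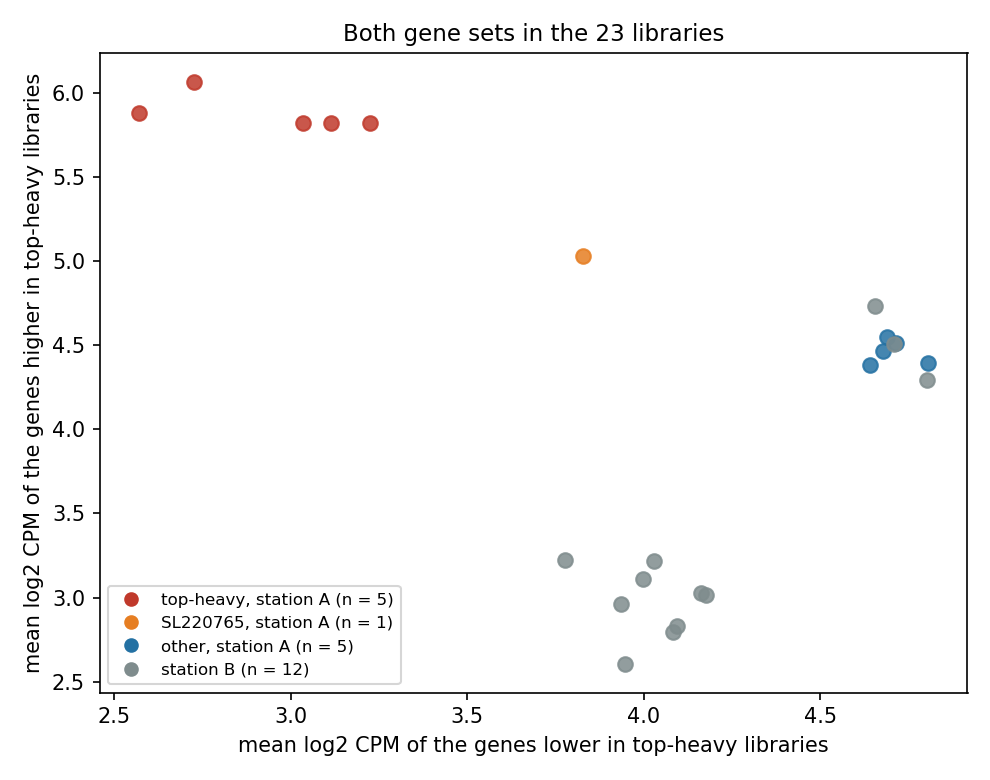
Mean log2 CPM of the genes lower (x axis) and higher (y axis) in the top-heavy libraries, 1 point per library, in a common scaling of both stations. The genes were chosen on the station A libraries other than SL220765. That library lies between both classes, at 3.83 and 5.03, and the 12 station B libraries lie at or under 4.73 on the y axis, below all top-heavy libraries.

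The genes of the study with a symbol were also compared between the classes. Of the 24 genes of its tables, 18 were chosen by the authors on these station A libraries and 6 on those of station B. Of the 24, 23 were retained in station A. By the rule above, 0 of the 23 were higher and 1 was lower, beside 13.6% and 16% of all retained genes. The 18 genes of the station A list had a median log2 fold change of -0.05, with 9 above 0 and 9 below, and the 5 retained genes of the station B list a median of 0.39, beside -0.08 over all retained genes. No further symbol could be paired with an identifier, so markers of neutrophils, T cells and B cells were not analysed here and the label of white blood cells was not checked by them.

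KIR3DL1 (ENSBTAG00000047971), a receptor of natural killer cells for MHC class I, was the gene that met the rule. The filter asked for more than 1 CPM in 6 or more libraries. KIR3DL1 passed it through the other 6 libraries alone, and so through the class where it is high. It had 0.23, 0.94, 0.72, 0.23 and 0.74 CPM in SL220767, SL220771, SL220772, SL220773 and SL220774, and 1.296 to 7.60 CPM with a median of 2.82 in the other class, a log2 fold change of -2.61. The top-heavy values rest on 1, 4, 4, 1 and 3 counts, and the other 6 libraries hold 327 counts together. From the summed counts, scaled by the TMM-scaled library totals, the ratio of top-heavy to other was 0.162. KIR3DL1 is singled out here because its classes do not overlap, so this ratio is a description and no support for a difference. In whole blood cells a lower level can come from fewer cells of a type or from less RNA per cell, and these cannot be told apart. KIR genes form a family of close copies, so the assignment of reads is uncertain.

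BOLA-DQB (ENSBTAG00000021077), an MHC class II beta chain that presents peptides on B cells, monocytes and dendritic cells, had the largest fold change of the retained genes on the lower side and did not meet the rule because of 1 library. It had 3.28, 4.93, 10.1, 17.2 and 14.8 CPM in SL220767, SL220771, SL220772, SL220773 and SL220774. In the other class it had 407 CPM in SL220764, 577 in SL220765, 445 in SL220766, 77.4 in SL220768, 59.5 in SL220775 and 1.96 in SL220769. The classes overlapped through SL220769 alone, and the log2 fold change was -4.69. It was -5.60 among AI-pregnant and -1.65 among NB-pregnant heifers, a difference that was not tested. BOLA class II genes are polymorphic and have close copies, so reads of some alleles may not have been counted.

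Other genes of the list overlapped between the classes. TTLL1, a tubulin polyglutamylase, had 251, 96.6, 15.6, 199 and 234 CPM in SL220767, SL220771, SL220772, SL220773 and SL220774, against 29.2 to 78.0 CPM in the other class, a log2 fold change of 1.38. Its overlap came from SL220772 alone, the lowest of all 11 libraries. Among AI-pregnant heifers alone its log2 fold change was 0.03 and among NB-pregnant heifers alone 1.68, a difference that was not tested. ALAS2, the first enzyme of heme synthesis in red cell precursors, had 23.0, 98.0, 90.6, 167 and 110 CPM against 12.1 to 95.4 CPM, a log2 fold change of 1.16. Here the highest value of the other class was that of SL220765. ALDH5A1, an enzyme of GABA breakdown, had a log2 fold change of 1.03 (0.21 among AI-pregnant heifers alone) and overlapped widely, with 14.9 to 87.6 CPM against 13.5 to 41.2 CPM.

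LYZ, the lysozyme of granulocytes and monocytes and the most abundant gene of the list, had 902, 1394, 1135, 807 and 824 CPM in the top-heavy libraries in the same order, against 666 to 1559 CPM with a median of 917. Its log2 fold change was 0.04 with TMM factors and -0.40 without normalization factors. FCER1A, the IgE receptor subunit of basophils and mast cells, had a log2 fold change of -0.79 with 3.71 to 15.2 against 8.40 to 28.9 CPM. P2RY12, the ADP receptor of platelets, had 0.39 with 3.26 to 9.40 against 1.33 to 8.40 CPM. Ranges overlapped in each of these genes.

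**Figure D5:**
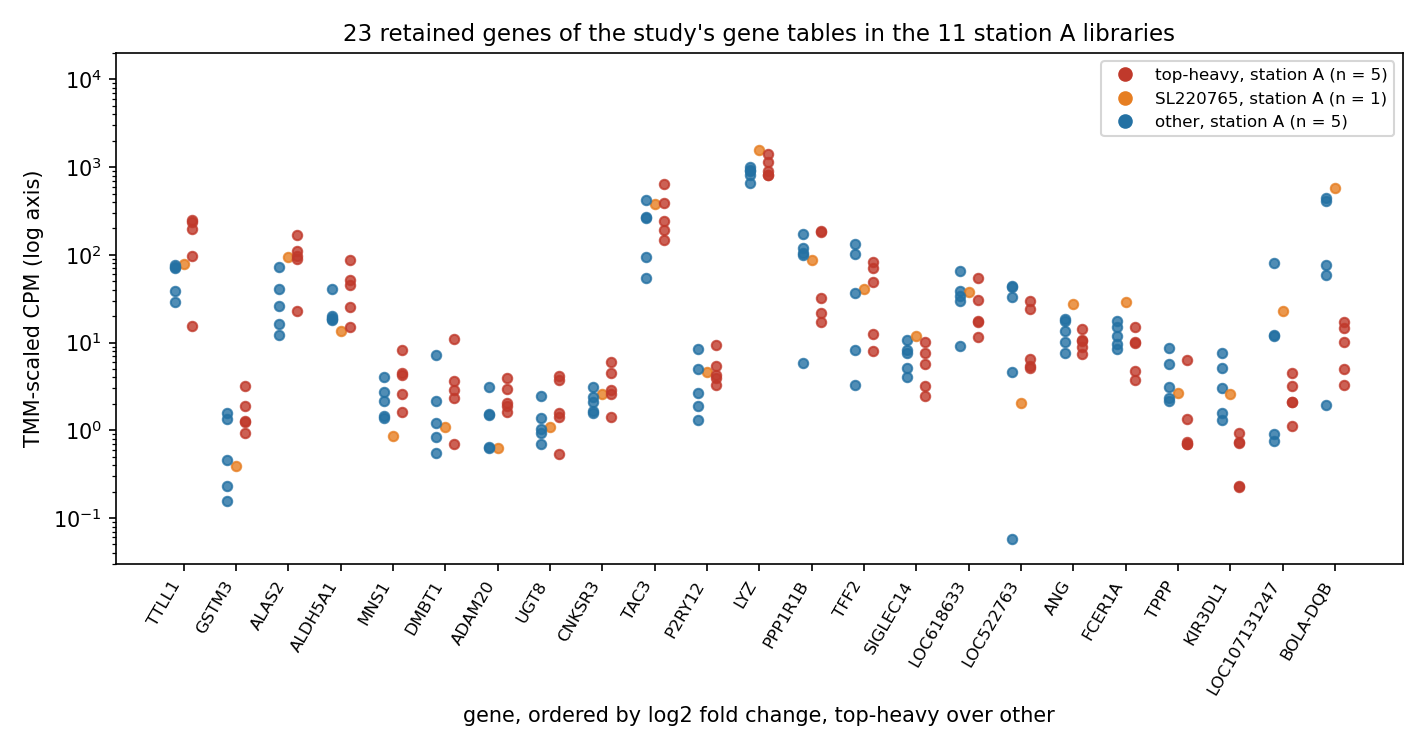
TMM-scaled CPM (log axis) of the 23 retained genes of the study's tables in the 11 station A libraries, ordered by log2 fold change and with SL220765 in a colour of its own. The classes separate in KIR3DL1, at 0.23 to 0.94 against 1.296 to 7.60 CPM, and in BOLA-DQB except for 1 library of the other class at 1.96 CPM.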

How the data were processed

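Total RNA of PWBC was made into TruSeq Stranded mRNA libraries. The authors aligned read pairs to the UMD3.1 genome, left out pairs that aligned to several places and duplicates, and counted the rest on Ensembl genes with HTSeq. The strand setting is not given in the sources used here. The deposited counts are whole numbers without normalization, for 24616 genes. The authors also deposited the counts and the FPKM, scaled by gene length and library total, of retained genes. These were checked to be the 12128 genes with more than 1 CPM in 6 or more station A libraries. Gene lengths were computed from counts and FPKM.

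Classes were formed by the share of the 10 largest genes (over 5%). The classes, members and lists were chosen with earlier results of these data known. Log2 fold changes came from edgeR's quasi-likelihood fit with TMM factors, and no p-value was taken from it. Log2 CPM used a prior count of 2. Fits were tested on simulated data. Pregnancy outcome, which the labels give, was compared with Fisher's exact test. Named genes were those among the 10 largest of any library, the 15 with the largest fold in each direction at a mean of at least 20 CPM without overlap, up to 6 members of each list, and the 24 genes of the study's tables, with at most 2 identifiers per direction printed where no symbol was paired. The match of mitochondrial genes by length to RefSeq (assembly ARS-UCD2.0) and the runs without these genes or without SL220772 were chosen after seeing the data. No coordinates or sequences were taken from it. Lists of cell types and pathways had 6 members with an identifier, all in the study's tables. SAXO2 was not retained in station A. Total counts were 4826003 to 20053283 in station A and 5577129 to 20434401 in station B. Alternatives were other scalings, filters and fold estimates, each library left out, and each outcome alone. Fits ran in edgeR 4.0.16 (with limma 3.58.1) and DESeq2 1.42.0 under R 4.3.3, and figures were drawn with matplotlib 3.10.9 under Python 3.11.15.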

Additional observations from a re-analysis of the deposited data

Results flagged for a closer look

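In 100 groups of 5 or 6 values, the highest or lowest library stood far from the others of its class (Dixon's criterion at 95%) in 11. Chance flags about 1 in 20 groups where groups are independent and values normally distributed. These groups share libraries and include CPM without logs, so the 11 cannot be set against that rate. Among the top-heavy libraries, SL220767 had a mean log2 CPM over the higher genes of 6.06, with the next at 5.88. Those genes were also chosen on the same libraries, a further reason why the chance rate does not apply to this flag. SL220774 had 13412 CPM of the 16S rRNA-length gene, with the next at 7915 CPM, and 10.9 CPM of DMBT1, a mucosal scavenger receptor, with the next at 3.62 CPM. SL220772 had 6.34 CPM of TPPP, a tubulin polymerization promoting protein, with the next at 1.36 CPM.

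In the other class, SL220765 was flagged for its mean log2 CPM over the higher genes (5.03, next 4.55) and over the lower genes (3.83, next 4.64), and for the 12S rRNA-length gene (1040 CPM, next 503 CPM). Both gene sets were chosen with SL220765 set apart, for the rest of its class lying wholly beyond the top-heavy range. Its flags on their means can come from that choice, a further reason why the chance rate does not apply to them. SL220768 had 7.26 CPM of DMBT1 with the next at 2.17 CPM, and 3.11 CPM of ADAM20 with the next at 1.52 CPM. SL220769 had 41.2 CPM of ALDH5A1 with the next at 20.2 CPM. SL220766 had 81.1 CPM of LOC107131247 with the next at 23.1 CPM.

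LOC107131247 also differed in direction between the outcomes. Its log2 fold change, top-heavy over other, was -3.23 among AI-pregnant heifers (2 against 4 libraries) and 1.45 among NB-pregnant heifers (3 against 2), with every library of one class on one side in both. This difference was not tested. The NB-pregnant value rests on 9, 5 and 13 counts in SL220767, SL220773 and SL220774, against 7 in SL220768 and 18 in SL220769. By the rule, 2322 of the 12128 genes were lower among AI-pregnant heifers alone, and 2437 were higher among NB-pregnant heifers alone.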

How the results depend on the processing

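Of the results counted by the rule with all libraries, none changed direction under the settings run here. For runs on fewer libraries this was set by the rule, since values without overlap keep their order in any subset apart from small rescaling. LOC107131247, which overlapped with all libraries, was counted as lower among AI-pregnant heifers alone (-3.23) and as higher among NB-pregnant heifers alone (1.45). Of the 12128 genes, 2322 were lower in the former run and 2437 higher in the latter, where this gene rests on few counts. The numbers of higher and lower genes, 1654 and 1935, were 744 and 3431 without normalization factors, where the median log2 fold change of all retained genes was -0.55 in place of -0.08. The share of higher genes among the counted ones was 46.1% with TMM, 17.8% without factors, 35.3% with upper quartile factors and 50.8% with DESeq2 size factors. Lower genes were 3084 among NB-pregnant heifers alone and 3081 when overlap was ignored. The median over all retained genes was also -0.0239 with DESeq2 size factors, -0.0243 with fold changes of DESeq2, -0.0246 with SL220765 set apart, -0.0241 among NB-pregnant heifers alone, -0.23 with upper quartile factors, -0.29 without a filter on low counts and -0.0393 for genes over 10 CPM in 6 or more libraries. The median of the 15 mitochondrial-length genes was 2.48 without factors and 2.53 among AI-pregnant heifers, and all 15 were counted as higher in each setting that held them. The gap between the classes in the share of the largest genes, 3.04 percentage points for 10 genes, was 5.55 for 50 genes and 0.28 without the mitochondrial-length genes. With each library left out, higher genes numbered 1591 (without SL220767) to 2151 (without SL220765), lower genes 1894 to 2813, the mitochondrial-length median was 2.80 to 3.101 and the median of all genes -0.0974 to -0.0246. TPPP, at -0.998, had a log2 fold change of -2.23 without SL220772, and DMBT1 0.23 without SL220774 and 1.73 without SL220768. TTLL1 and ALDH5A1 had 0.03 and 0.21 among AI-pregnant heifers alone. The cause of these shifts was not tested. No paired analysis was possible because the labels give no replicate numbers shared between the classes. The top-heavy class rests on 5 libraries with low total counts, and genes of low CPM rest on few counts there.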
